A study of Mus musculus with 12 samples.

Results

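Islet RNA of 12 male mice was examined for 10 genes of G protein-coupled receptors that tune insulin secretion: Glp1r, Gipr, Gcgr, Gpr119, Ffar1, Chrm3, Cckar, Adra2a, Sstr3 and Galr1. The members were given by name and were found as single entries among the 24078 of the deposited table. Values above 0 were present for each of the 10 genes in each of the 12 libraries. The mean of each gene over the 12 libraries exceeded the minimum of 0.1 RPKM that was required for testing. RPKM are reads scaled to transcript length and to the number of mapped reads. A comparison of levels between receptor genes therefore relies on the transcript lengths used, and the annotation that set these lengths is not known.

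The mice were 5 to 6 months old F2 hybrids of 129S6/SvEvTac and C57BL/6, with 4 animals of each genotype and 1 library per animal. WT mice carried no targeted allele, Wfs1HZ mice carried the Wfs1tm1Koks allele in heterozygous form and Wfs1KO mice carried it in homozygous form. In this allele most of exon 8 of Wfs1 is replaced by a LacZ cassette and a truncated fusion protein is still made, so the Wfs1KO animals lack the larger part of the protein rather than the whole gene product. The islets of all genotypes were released with collagenase, handpicked and kept overnight in high-glucose medium. The comparisons ask whether the loss of WFS1 changes the receptor transcripts of islets.

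Insulin release from the beta cell is set by glucose and adjusted by receptors that act through 3 kinds of G protein. Receptors coupled to Gs, such as those of glucagon-like peptide-1 and of glucose-dependent insulinotropic polypeptide, raise cyclic AMP and strengthen secretion that glucose has started. Receptors coupled to Gq, such as the muscarinic M3 receptor, act through phospholipase C, inositol trisphosphate and protein kinase C. Receptors coupled to Gi and Go, such as the alpha-2A adrenergic receptor, lower cyclic AMP and hold secretion back. Islets hold alpha, delta and PP cells beside the beta cells, and some of these receptors are made in more than 1 of these cell types. In RNA from whole islets, fewer cells of a type and less RNA per cell cannot be told apart.

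The targeted gene was measured first. Wfs1 was 24.9 to 33.9 RPKM in WT islets, 4.69 to 16.4 RPKM in Wfs1HZ islets and 2.45 to 6.61 RPKM in Wfs1KO islets. The WT libraries thus lay above all others, while the ranges of Wfs1HZ and Wfs1KO islets overlapped. The difference between Wfs1KO and WT was -2.76 on the log2(RPKM + 0.1) scale (SE 0.29, limma adjusted p = 0.04, and 0.19 without the 3 libraries described next). With any 1 animal left out its limma adjusted p was above 0.05, at 0.0666 to 0.314. The reads behind the values were estimated from the steps of low values at 2191000 to 9557000 per library. This is below the number of reads that the study gives for its samples, and the total by which the values were scaled is not known, so all read counts given here are estimates. At these depths 3 reads on a transcript of 2 kb equal 0.157 to 0.685 RPKM, and this covers counting error only. Of the 9 beta cell markers examined, Mafa was listed at 0 in 10 libraries, while the other 8 had values in all genotypes.

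The 3 libraries with the highest Gcg, the glucagon gene, stood apart. They were replicate 2 of WT, replicate 2 of Wfs1HZ and replicate 4 of Wfs1KO, and their Gcg was 155286 to 217165 RPKM against 50073 to 109573 RPKM in the other 9. They also held the lowest Ins1, with 4981 to 13075 RPKM against 18520 to 91587 RPKM, and the lowest Ctrb1, an acinar enzyme gene, with 6079 to 41103 RPKM against 48373 to 258070 RPKM. The 5 alpha cell markers summed to 59465 to 182291 RPKM in WT, 57545 to 155315 RPKM in Wfs1HZ and 50096 to 217198 RPKM in Wfs1KO islets. The 9 beta cell markers summed to 32017 to 179836 RPKM in WT, 12518 to 137706 RPKM in Wfs1HZ and 22340 to 91413 RPKM in Wfs1KO islets. The 7 of 8 acinar markers found summed to 50968 to 112754 RPKM in WT, 8440 to 294522 RPKM in Wfs1HZ and 7979 to 264006 RPKM in Wfs1KO islets. Of the 8 beta cell markers tested, 1 had an unadjusted p under 0.05 in Wfs1KO against WT islets, the glucose transporter gene Slc2a2 (-1.03, limma adjusted p = 0.84). Higher at this p were 1 of 5 duct markers, Sox9 (0.72), 1 of 4 endothelial markers, Cdh5 (1.35), and 1 of 4 stromal markers, Dcn (1.39). The median differences of these lists were -0.63 for beta cells, -0.11 for duct, 0.74 for endothelium and 1.41 for stroma. Of all transcripts 1.74% were lower and 3.91% higher at this p. The part of the cell makeup in the receptor differences was not tested. The receptor values are given with and without these 3 libraries, which were singled out after the data had been seen. The labels name no batch.

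Upstream sequence is shown for Glp1r and Gpr119, because the 3 libraries rich in Gcg were the lowest for Glp1r and the highest for Gpr119. The start of the transcript model is shown for Ffar1, because it bears on how few reads lay behind that gene. The sequences are those of RefSeq on GRCm38.p6, the build of mm10, and are written from the 5′ to the 3′ end of the gene's strand. For Glp1r and Gpr119 the 200 bases from 250 to 51 bases before the start site are printed, and capitals mark each match to GGGCGG or TGACG on either strand. For Ffar1 the first 30 bases of the model are printed, and capitals mark the start codon.
Glp1r, chr17:30901617-30901816, plus strand: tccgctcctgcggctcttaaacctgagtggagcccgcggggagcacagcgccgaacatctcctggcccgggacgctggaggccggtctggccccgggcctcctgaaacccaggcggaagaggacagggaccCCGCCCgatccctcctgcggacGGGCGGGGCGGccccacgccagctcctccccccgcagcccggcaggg
Gpr119, chrX:48674529-48674728, minus strand: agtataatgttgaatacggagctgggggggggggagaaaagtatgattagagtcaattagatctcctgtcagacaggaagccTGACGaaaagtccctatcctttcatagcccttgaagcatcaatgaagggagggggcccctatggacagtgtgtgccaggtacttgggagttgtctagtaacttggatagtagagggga
Ffar1, chr7:30861441-30861470, minus strand: ATGgacctgcccccacagctctccttcgct

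Windows of 7 of the 10 receptor genes were used. The Glp1r window was 75% G and C, which was higher than in 96.1% of the 32851 windows of the same length, and it held 20 CG pairs. The Gpr119 window was 48.5% G and C, higher than 37.7% of the windows, and it held 2 CG pairs. GGGCGG or its reverse CCGCCC, the letters of the GC box, occurred 3 times upstream of Glp1r, with 2 of the matches overlapping by 1 base, and 0 times upstream of Gpr119. It was present in 24.6% of all windows. TGACG or CGTCA, the core of the cyclic AMP response element, occurred once upstream of Gpr119 and in 12.7% of all windows. CACGTG and TATAAA, searched likewise on both strands, were found in neither window and in 4.34% and 9.14% of all windows. These matches describe letters only.

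The order of the receptor levels was taken from the mean over the 12 libraries. Glp1r was highest at 54.6 RPKM, followed by Sstr3 at 18.1, Cckar at 6.4, Adra2a at 5.6, Chrm3 at 3.28, Gpr119 at 2.43, Gcgr at 1.99, Gipr at 1.74, Ffar1 at 1.2 and Galr1 at 0.853 RPKM. Among the 24078 entries the mean of Glp1r was above 97% and that of Galr1 above 42%. Neighbours in this order were compared within libraries by an exact two-sided sign-flip permutation test, with adjustment over the 9 pairs. Glp1r exceeded Sstr3 in 12 of 12 libraries, by 1.45 on the log2 scale (SD 0.66, exact adjusted p = 0.0022). Sstr3 exceeded Cckar in 12 of 12 libraries, by 1.65 (SD 0.93, exact adjusted p = 0.0022). Adra2a exceeded Chrm3 in 10 of 12 libraries, by 0.71 (SD 0.6, exact adjusted p = 0.013). The other 6 neighbouring pairs did not differ beyond their spread, with exact adjusted p-values from 0.131 to 0.796. On the deposited scale Glp1r and Sstr3 thus stood apart at the top, and the order of neighbours from Chrm3 down to Galr1 was not resolved. The exact p-values cover the spread between libraries. They do not cover an error in a transcript length, which would shift a gene in all libraries alike.

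**Figure D1:**
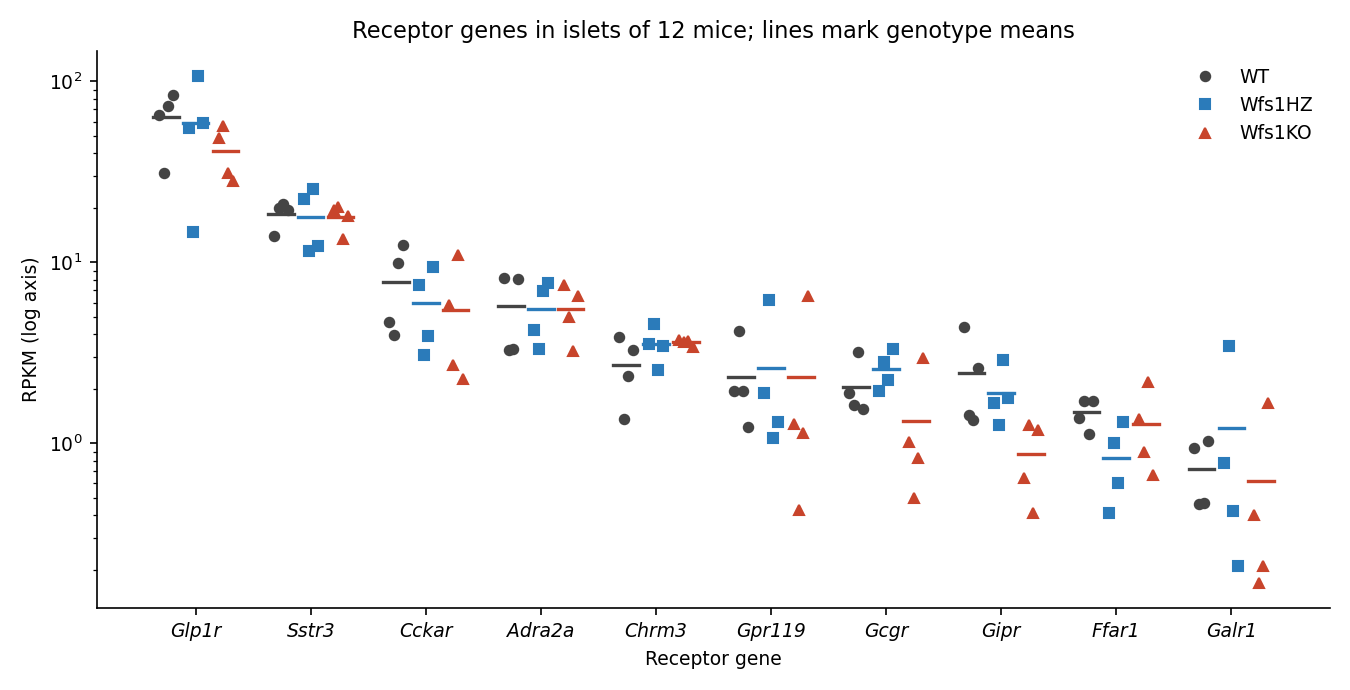
RPKM of the 10 receptor genes on a log axis, in the order of their mean over the 12 libraries; each symbol is 1 library and each line the mean of the 4 libraries of a genotype. Glp1r reached 107 RPKM in 1 Wfs1HZ library and was 14.8 RPKM in another, while Galr1 spanned 0.17 to 3.46 RPKM.

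In Wfs1KO against WT islets, 0 of the 10 receptor genes passed an adjusted p of 0.05 in limma, where 0.0138% of the 21701 transcripts tested did. The receptors' lowest adjusted p was 0.84. At an unadjusted p under 0.05 there was 1 receptor gene, Gipr, which was lower in Wfs1KO islets, as were 1.74% of all transcripts (5.64% in both directions). Gipr was also the 1 receptor gene whose genotypes did not overlap, against 2.74% of all transcripts in both directions and 0.991% in the lower direction. Of the 10 genes, 8 had a log2 difference below 0, with a median of -0.54, whereas 42.6% of all transcripts were below 0 and their median was 0.07. Of the 1225 transcripts at an unadjusted p under 0.05, 848 were higher in Wfs1KO islets, and this split depended on the scaling, with 740 of 1569 for quantile normalization, 889 of 1572 for median-of-ratios scaling and 1528 of 1732 for scaling to pan-endocrine markers, which moved the median of all transcripts to 0.23.

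In Wfs1HZ against WT islets, 0 of the 10 genes passed an adjusted or an unadjusted p of 0.05, with 0.0% and 2.35% of all transcripts. The genotypes overlapped for all 10, and did not overlap for 1.66% of all transcripts. The log2 difference was below 0 for 6 of the 10 and for 46.8% of all transcripts, with medians of -0.08 and 0.04. In Wfs1KO against Wfs1HZ islets, again 0 of the 10 passed either threshold, with 0.0% and 2.45% of all transcripts, and all 10 overlapped, against 1.43% of transcripts that did not. The log2 difference was below 0 for 6 of the 10 and for 46.5% of all transcripts, with medians of -0.27 and 0.04. Every comparison shares a genotype with each of the other 2, so they are not independent of one another.

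**Figure D2:**
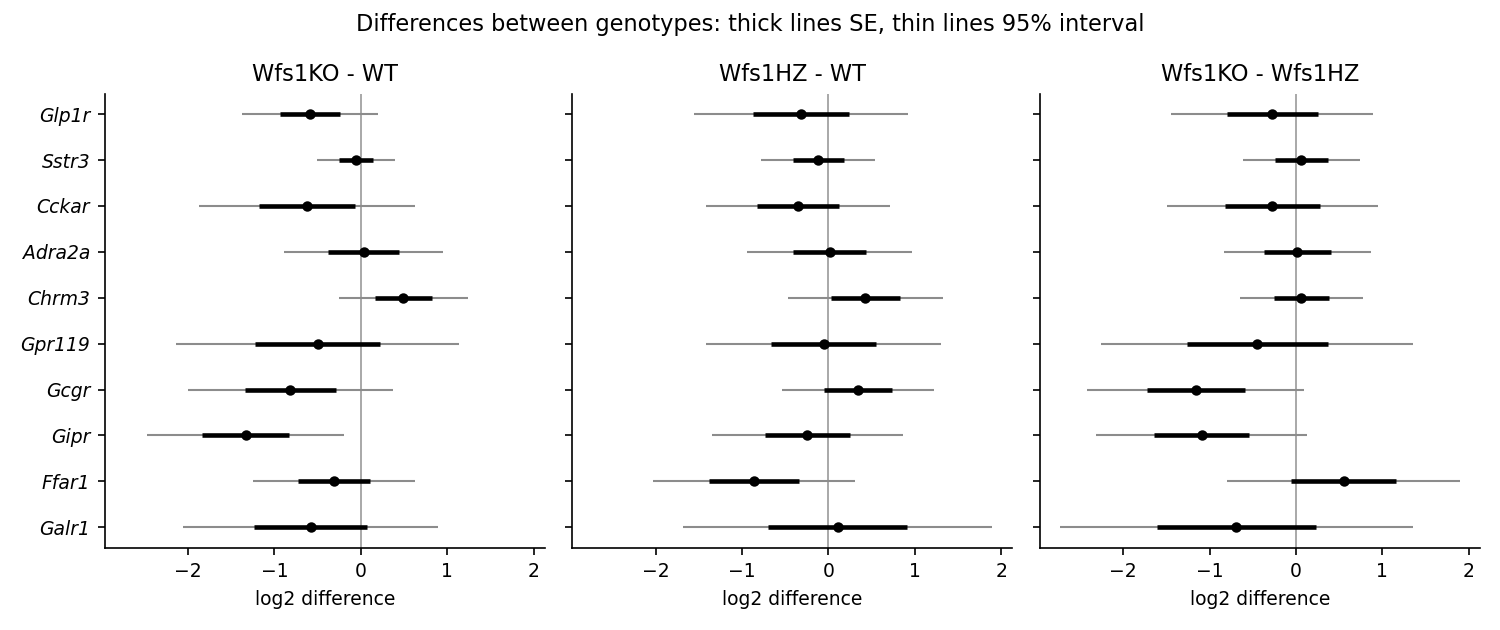
Differences between genotypes on the log2(RPKM + 0.1) scale for the 10 receptor genes, with the SE as thick and the 95% interval of the limma fit as thin lines. The interval of Gipr in Wfs1KO minus WT, from -2.48 to -0.19, is the 1 interval of the 30 that does not reach 0.

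The receptors of the glucagon family couple to Gs. Glp1r encodes the receptor of glucagon-like peptide-1, the target of the incretin drugs. Its values were 65.1, 31.2, 73.4 and 84 RPKM in WT, 55.4, 14.8, 107 and 59.3 RPKM in Wfs1HZ and 48.5, 57.1, 31.3 and 28.1 RPKM in Wfs1KO islets. The genotypes overlapped, since WT replicate 2 was as low as the lower Wfs1KO libraries. The mean was 63.4 ± 22.9 RPKM in WT, 59.2 ± 37.8 in Wfs1HZ and 41.3 ± 13.8 in Wfs1KO islets (SD, n = 4). The log2 difference of Wfs1KO and WT was -0.59 (SE 0.35, 95% interval -1.38 to 0.2, limma adjusted p = 0.88, exact permutation p = 0.2). Between Wfs1HZ and WT it was -0.32 (95% interval -1.56 to 0.92) and between Wfs1KO and Wfs1HZ -0.27 (95% interval -1.44 to 0.89).

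The 3 lowest Glp1r values of the series were those of the 3 libraries rich in Gcg, at 14.8 to 31.2 RPKM against 31.3 to 107 RPKM in the other 9. Those 3 were also the lowest of all for Ins1. Wfs1KO replicate 3, just above them at 31.3 RPKM, had the second lowest Gcg, at 52640 RPKM, and the second highest Ctrb1, at 220883 RPKM. It had the lowest Ins1 of the other 9 libraries, at 18520 RPKM, and its Ins2 of 14220 RPKM was below the 15292 RPKM of WT replicate 2. The part of these markers in the Glp1r differences was not tested. The pattern most like that of Glp1r over the 12 libraries was that of Ucn3, urocortin-3 of mature beta cells, with a root mean square difference of 0.27 on the centred log2 scale, followed by Papss2 with 0.31. Ucn3 was 54.1 ± 21.7 RPKM in WT, 58.7 ± 41.7 in Wfs1HZ and 32.3 ± 14.7 in Wfs1KO islets (SD, n = 4).

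Gipr encodes the receptor of glucose-dependent insulinotropic polypeptide, the other incretin. It was 4.38, 1.43, 1.34 and 2.61 RPKM in WT, 1.68, 1.27, 2.88 and 1.78 RPKM in Wfs1HZ and 0.64, 1.27, 0.41 and 1.18 RPKM in Wfs1KO islets. All Wfs1KO libraries lay below all WT libraries, though the highest Wfs1KO value of 1.27 RPKM was close to the lowest WT value of 1.34 RPKM. The mean was 2.44 ± 1.42 RPKM in WT, 1.9 ± 0.688 in Wfs1HZ and 0.875 ± 0.417 in Wfs1KO islets (SD, n = 4). The log2 difference of Wfs1KO and WT was -1.33 (SE 0.51, limma unadjusted p = 0.027, adjusted p = 0.84), and the exact permutation p of 0.029 is the smallest that 4 against 4 animals can give. Against Wfs1HZ the difference was -1.09 (SE 0.55, limma adjusted p = 1, exact permutation p = 0.057), and 1 Wfs1KO library shared the lowest Wfs1HZ value of 1.27 RPKM. Wfs1HZ and WT differed by -0.24 (SE 0.49, 95% interval -1.34 to 0.86).

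Few reads lay behind Gipr. The steps between its values match whole reads on a transcript of 1799 bases, on which the libraries held 5 to 68.9 reads. The 7 reads of WT replicate 3 and the 14 of Wfs1KO replicate 2 set the narrow gap between the genotypes. The unadjusted p of Gipr rose above 0.05 when WT replicate 1 (0.0848), WT replicate 4 (0.0641), Wfs1KO replicate 1 (0.0654) or Wfs1KO replicate 3 (0.0722) was left out. The patterns nearest to Gipr were those of Spock1, which encodes the proteoglycan testican-1, with a root mean square difference of 0.37, and Phactr1 with 0.42. Spock1 was 8.81 to 22.2 RPKM in the 8 WT and Wfs1HZ libraries and 4.45 to 7.36 RPKM in the 4 Wfs1KO libraries.

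Gcgr encodes the glucagon receptor, through which alpha cells act on beta cells. It was 1.89, 1.62, 3.19 and 1.54 RPKM in WT, 1.95, 2.83, 2.25 and 3.3 RPKM in Wfs1HZ and 1.02, 0.5, 0.83 and 2.98 RPKM in Wfs1KO islets. In Wfs1KO islets 3 libraries lay below all 8 of the other genotypes, while replicate 4, which is rich in Gcg, lay among the highest. The log2 difference was -0.82 against WT (SE 0.53, 95% interval -2 to 0.37, exact permutation p = 0.229) and -1.16 against Wfs1HZ (SE 0.57, 95% interval -2.42 to 0.1, exact permutation p = 0.114). Between Wfs1HZ and WT it was 0.34 (SE 0.39, 95% interval -0.54 to 1.23). The value steps match a transcript of 1939 bases and 6 to 32.1 reads per library. Nearest to Gcgr by pattern were Klc3 (0.36) and Ccdc159 (0.42).

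Without the 3 libraries rich in Gcg, each genotype keeps 3 animals and the picture of this family shifts. Against WT, 4 receptor genes were then below the unadjusted threshold of 0.05 in limma, and all were lower in Wfs1KO islets. Their log2 differences were -0.74 for Glp1r (SE 0.26), -1.69 for Gipr (SE 0.59), -1.37 for Gcgr (SE 0.45) and -1.33 for Galr1 (SE 0.49). In that fit 2.57% of all transcripts were lower at this threshold. The limma adjusted p-values of the 4 genes were 0.587 to 0.621, so none passed. For the same 4 genes the remaining Wfs1KO libraries lay below all remaining WT libraries, as did 4.73% of all transcripts. The mean of Glp1r was then 74.2 ± 9.46 RPKM in WT and 45.6 ± 13.1 in Wfs1KO islets (SD, n = 3), and that of Gcgr 2.21 ± 0.869 and 0.783 ± 0.263 RPKM.

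Against Wfs1HZ the same omission left 2 receptor genes below the unadjusted threshold in limma, Gcgr (-1.57, SE 0.43, adjusted p = 0.64) and Gipr (-1.42, SE 0.52, adjusted p = 0.78). Both were lower in Wfs1KO islets without overlap. Of all transcripts 0.963% were lower at this threshold and 2.03% lower without overlap. Chrm3 was then higher in Wfs1KO islets without overlap, like 7.86% of all transcripts, by 0.22 (SE 0.27, limma adjusted p = 0.9). Between Wfs1HZ and WT 0 of the 10 reached an unadjusted p under 0.05, against 3.41% of all transcripts. With 1 library left out, the unadjusted limma p of Glp1r against WT was 0.0135 without WT replicate 2 (adjusted p = 0.76), and without Wfs1KO replicate 4 those of Gcgr and Galr1 were 0.0146 and 0.041 (adjusted p = 0.48 and 0.56). Under the threshold lay 1383 of the 21701 transcripts without WT replicate 2 and 1870 without Wfs1KO replicate 4, against 1225 with all animals. Against Wfs1HZ, Glp1r had a limma p of 0.0442 and Gipr of 0.0371 without Wfs1HZ replicate 2 (adjusted p = 0.81 for both), and Gcgr of 0.011 without Wfs1KO replicate 4 (adjusted p = 1). In this comparison 1308 transcripts lay under the threshold without Wfs1HZ replicate 2 and 782 without Wfs1KO replicate 4, against 532 with all animals.

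**Figure D3:**
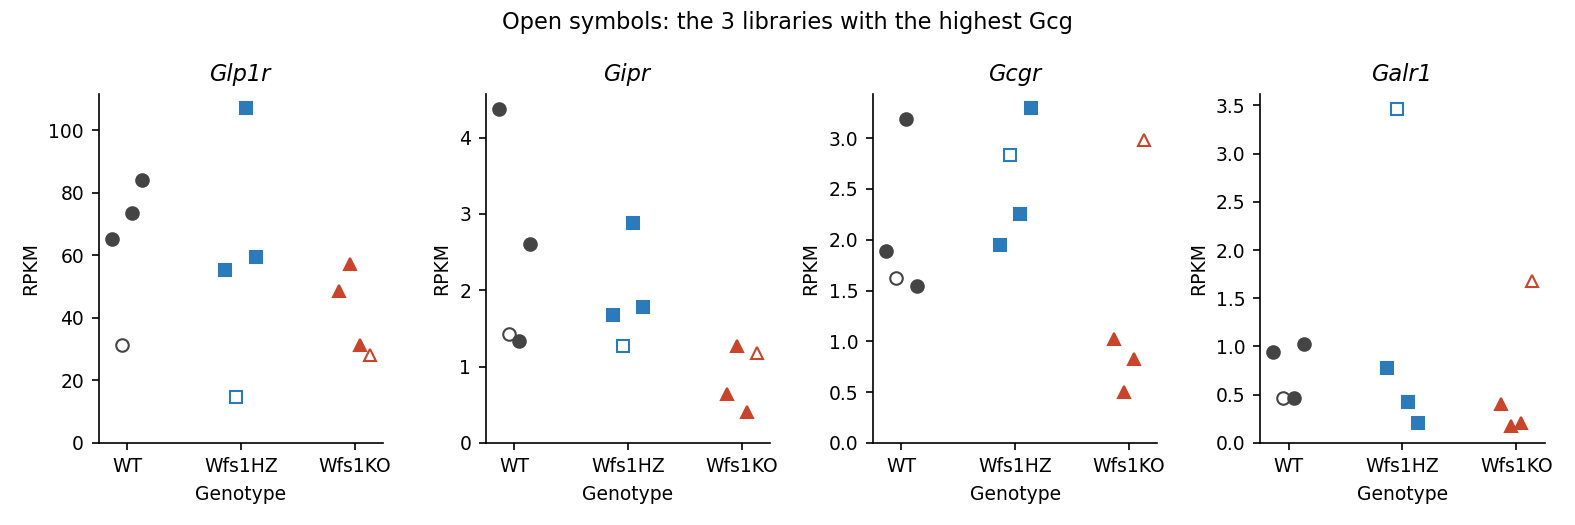
RPKM of Glp1r, Gipr, Gcgr and Galr1 in each library by genotype, each panel with an axis from 0; open symbols are the 3 libraries with the highest Gcg. In all 4 panels the filled Wfs1KO symbols lie below the filled WT symbols, and in the Gcgr and Galr1 panels the open Wfs1KO symbol lies above every filled Wfs1KO symbol.

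Gpr119, a Gs-coupled receptor of fatty acid amides and monoacylglycerols, was highest in the 3 libraries rich in Gcg, where Glp1r was lowest. It was 1.94, 4.2, 1.95 and 1.23 RPKM in WT, 1.9, 6.17, 1.07 and 1.31 RPKM in Wfs1HZ and 1.28, 0.43, 1.14 and 6.5 RPKM in Wfs1KO islets. In each genotype 1 library was high and it was the one rich in Gcg, at 4.2 to 6.5 RPKM against 0.43 to 1.95 RPKM in the other 9. The genotype means of 2.33, 2.61 and 2.34 RPKM lay close together. The log2 differences of Wfs1KO and WT (-0.5, SE 0.73) and of Wfs1HZ and WT (-0.05, SE 0.61) were smaller than their SE. The 95% interval of the former, -2.14 to 1.14, does not exclude a large change in either direction. The nearest patterns were those of Zfp354c (0.37) and 1700086L19Rik (0.44). The promoter windows of the pair are those printed above, with 3 matches to the GC box for Glp1r and 1 match to TGACG for Gpr119. Adra2a had 1 match to each as well, and Gcgr 1 match to the GC box. Whether such matches go with the receptor levels was not tested.

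**Figure D4:**
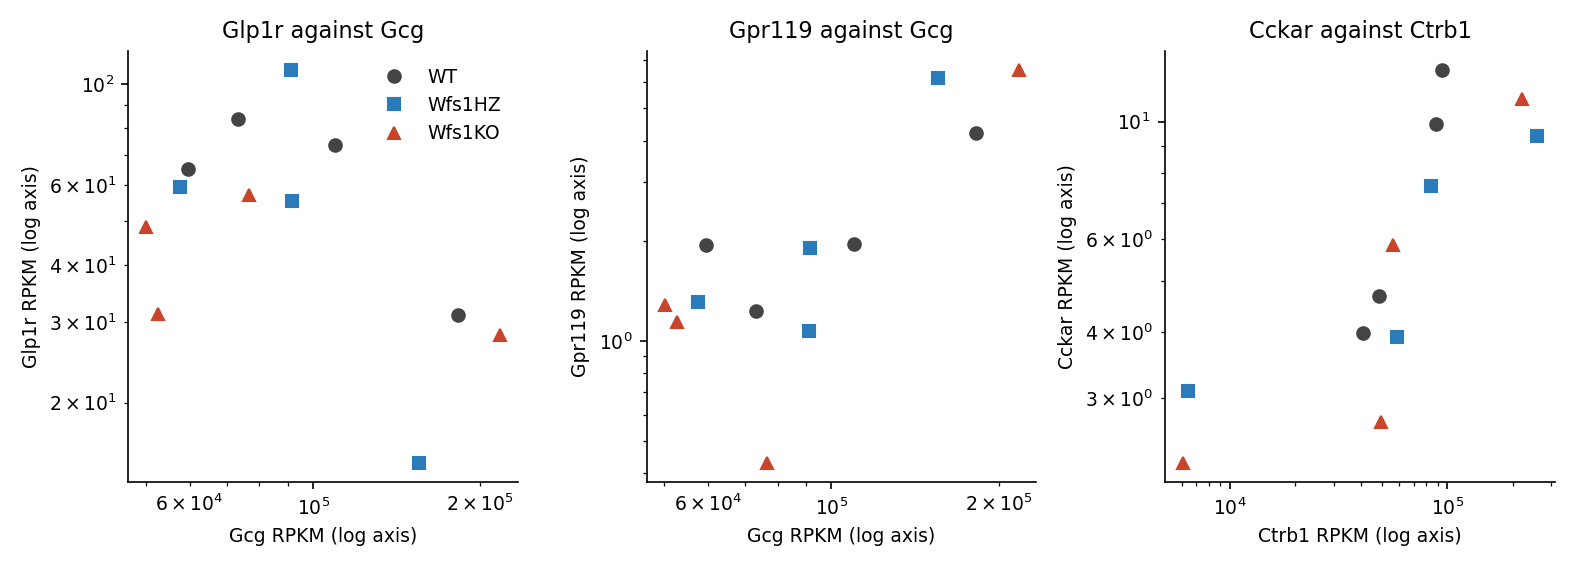
Glp1r and Gpr119 against Gcg and Cckar against Ctrb1, in RPKM on log axes, with 1 symbol per library coloured by genotype. The 3 libraries at 155286 RPKM of Gcg or more are the lowest for Glp1r and the highest for Gpr119, and the 5 libraries highest in Ctrb1 are the 5 highest in Cckar.

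The Gq-coupled receptors comprised Ffar1, Chrm3 and Cckar. Ffar1 encodes the receptor of long-chain fatty acids known as GPR40. It was 1.38, 1.72, 1.13 and 1.72 RPKM in WT, 0.41, 1, 0.6 and 1.31 RPKM in Wfs1HZ and 1.37, 0.89, 2.18 and 0.67 RPKM in Wfs1KO islets. In Wfs1HZ islets 3 of 4 libraries lay below all WT libraries. The mean was 1.49 ± 0.287 RPKM in WT, 0.83 ± 0.404 in Wfs1HZ and 1.28 ± 0.669 in Wfs1KO islets (SD, n = 4). Wfs1HZ and WT differed by -0.86 (SE 0.52, limma adjusted p = 1, exact permutation p = 0.057), the lowest exact p of this comparison among the 10 genes. Wfs1KO and WT differed by -0.31 (SE 0.42, 95% interval -1.25 to 0.63). Blvra (0.42) and Gys1 (0.45) had the patterns most like that of Ffar1.

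The Ffar1 values rest on 2 to 16 reads per library. Their steps match a transcript of 913 bases. The RefSeq model of the gene (chromosome 7, 30860568 to 30861470) is 903 bases long and begins with the start codon shown above, whereas the exon of GENCODE M21 spans 4175 bases. The depth limits what can be seen of Ffar1. Wfs1HZ replicates 1 and 2 and Wfs1KO replicate 4 each held 2 reads.

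Chrm3 encodes the muscarinic M3 receptor, through which vagal acetylcholine acts on the beta cell. It was 3.86, 1.37, 2.36 and 3.28 RPKM in WT, 3.54, 4.56, 2.55 and 3.43 RPKM in Wfs1HZ and 3.72, 3.62, 3.69 and 3.42 RPKM in Wfs1KO islets. The 4 Wfs1KO libraries lay close together, with an SD of 0.135 RPKM against 1.09 in WT and 0.823 in Wfs1HZ islets. On the annotated exons these 4 libraries held an estimated 222, 139, 185 and 70.3 reads. A difference in spread between the genotypes was not tested. The difference was 0.49 against WT (SE 0.33, 95% interval -0.26 to 1.24, exact permutation p = 0.2) and 0.06 against Wfs1HZ (SE 0.32). Chrm3 was 1 of 2 receptor genes with a positive log2 difference of Wfs1KO and WT, the other being Adra2a. The nearest patterns were those of Aass (0.16) and Gm16515 (0.26).

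Cckar encodes the cholecystokinin A receptor, which is also known from pancreatic acinar cells. It was 4.67, 3.98, 9.88 and 12.5 RPKM in WT, 7.54, 3.09, 3.91 and 9.38 RPKM in Wfs1HZ and 5.83, 2.7, 11 and 2.26 RPKM in Wfs1KO islets. Every genotype held high and low libraries, with means of 7.76 ± 4.11, 5.98 ± 2.98 and 5.46 ± 4.05 RPKM (SD, n = 4). The differences were -0.62 for Wfs1KO and WT (SE 0.55, 95% interval -1.87 to 0.63), -0.35 for Wfs1HZ and WT (SE 0.47) and -0.27 for Wfs1KO and Wfs1HZ (SE 0.55).

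The order of the libraries in Cckar resembled that in Ctrb1. The 5 libraries with the highest Ctrb1, at 83766 to 258070 RPKM, held the 5 highest values of Cckar, at 7.54 to 12.5 RPKM, and they came from all 3 genotypes. The lowest Cckar and the lowest Ctrb1 were both found in Wfs1KO replicate 4. The part of acinar RNA in the Cckar values was not tested. The pattern nearest to Cckar was that of Krt19, a keratin of duct cells, with a root mean square difference of 0.3, followed by Lamb3 with 0.44. Krt19 ranged from 15.8 to 83.9 RPKM.

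The receptors coupled to Gi and Go comprised Adra2a, Sstr3 and Galr1. Adra2a encodes the alpha-2A adrenergic receptor, through which adrenaline and noradrenaline restrain insulin secretion. It was 8.17, 3.26, 3.31 and 8.11 RPKM in WT, 4.23, 3.32, 6.91 and 7.68 RPKM in Wfs1HZ and 7.53, 4.96, 3.23 and 6.49 RPKM in Wfs1KO islets. High and low libraries occurred in all 3 genotypes. The means were 5.71 ± 2.8 RPKM in WT, 5.54 ± 2.09 in Wfs1HZ and 5.55 ± 1.87 in Wfs1KO islets (SD, n = 4). The mean of the log2 values was higher by 0.03 in Wfs1KO than in WT islets (SE 0.41, 95% interval -0.89 to 0.95), whereas the mean in RPKM was lower, so no direction can be given. The difference turned to -0.28 without the 3 libraries rich in Gcg and to -0.0013 with median-of-ratios scaling. The nearest patterns were those of Snapc2 (0.29) and Cntfr (0.3).

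Sstr3 encodes a receptor of somatostatin, the inhibitory hormone of delta cells. It was 13.9, 19.9, 20.9 and 19.4 RPKM in WT, 22.4, 11.5, 25.5 and 12.4 RPKM in Wfs1HZ and 19.6, 20.3, 13.5 and 18 RPKM in Wfs1KO islets. Among the 10 genes Sstr3 had the narrowest spread over the 12 libraries, with the highest value 2.22 times the lowest. Its difference of Wfs1KO and WT was the most tightly bounded, at -0.06 with a 95% interval from -0.5 to 0.39 (SE 0.2, exact permutation p = 0.6). The differences of Wfs1HZ and WT (-0.12, SE 0.3) and of Wfs1KO and Wfs1HZ (0.06, SE 0.31) were likewise below their SE. The sign of the Wfs1KO and WT difference turned to 0.12 with pan-endocrine marker scaling and to 0.07 with sample weights. The nearest patterns were those of Uaca (0.12) and Bcl9 (0.2).

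Galr1 encodes a receptor of galanin, a neuropeptide that inhibits insulin release. It was 0.94, 0.46, 0.47 and 1.03 RPKM in WT, 0.78, 3.46, 0.42 and 0.21 RPKM in Wfs1HZ and 0.4, 0.17, 0.21 and 1.68 RPKM in Wfs1KO islets. The highest values of Wfs1HZ and Wfs1KO islets were those of the libraries rich in Gcg, whereas WT replicate 2 was at 0.46 RPKM. On the annotated exons these values correspond to 3.1 to 24.6 reads per library, so Galr1 stood close to the limit of detection in 2 libraries with 3.1 reads. The log2 difference of Wfs1KO and WT was -0.58 (SE 0.65, 95% interval -2.06 to 0.89) and that of Wfs1HZ and WT 0.11 (SE 0.8, 95% interval -1.68 to 1.9).

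The exons of the 10 receptor genes share 0 bases with exons of any other gene of GENCODE M21. The annotation behind the deposited values is not known and its transcripts can differ from these exons, as the lengths of Gipr, Gcgr and Ffar1 show. The genes lie on chromosomes 17 (Glp1r, 30901817 to 30940791), 7 (Gipr, 19156061 to 19166127, and Ffar1, 30857390 to 30861564), 11 (Gcgr, 120530699 to 120538986), X (Gpr119, 48667979 to 48674478), 19 (Adra2a, 54044151 to 54048982), 13 (Chrm3, 9875486 to 10360847), 5 (Cckar, 53697776 to 53707705), 15 (Sstr3, 78537008 to 78544685) and 18 (Galr1, 82392380 to 82406777) of GRCm38.

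Ligands made in or near the islet were examined beside their receptors. Of 13 ligand genes, 0 had an unadjusted p under 0.05 in Wfs1KO or Wfs1HZ against WT islets. Against Wfs1HZ there was 1, Cck, the cholecystokinin gene, whose product is the ligand of the receptor that Cckar encodes. It was higher in Wfs1KO islets, as were 1.7% of all transcripts. Cck was 8.43, 0, 10.4 and 4.31 RPKM in WT, 2.46, 5.95, 4.14 and 1.16 RPKM in Wfs1HZ and 23.3, 13, 15.5 and 10.1 RPKM in Wfs1KO islets. All 4 Wfs1KO libraries exceeded all 4 Wfs1HZ libraries, by 2.3 on the log2 scale (SE 0.48, limma unadjusted p = 0.00067, adjusted p = 1). In both directions together, 1.43% of all transcripts did not overlap between Wfs1KO and Wfs1HZ islets. Against WT the 2 genotypes overlapped at a single pair of libraries (limma unadjusted p = 0.08, adjusted p = 0.88). The most abundant ligand genes were Gcg, Ppy and Pyy, with means over the 12 libraries of 101385, 7647 and 4229 RPKM.

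Among the other receptor genes of islets, 52 of the 55 listed were tested and 0 had an unadjusted p under 0.05 in any of the 3 comparisons, where 5.64%, 2.35% and 2.45% of all transcripts did for Wfs1KO and WT, Wfs1HZ and WT, and Wfs1KO and Wfs1HZ. The most abundant were Avpr1b at 13.2, Casr at 12.9 and Gprc5c at 10.7 RPKM, all below Sstr3. Avpr1b encodes a vasopressin receptor and Casr the calcium-sensing receptor. Their median difference of Wfs1KO and WT was -0.02, next to -0.54 for the 10 receptor genes and 0.07 for all transcripts. For Wfs1HZ and WT it was 0.26.

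Of the 44 tested genes of G proteins, arrestins and receptor regulators, 3 were lower and 2 higher in Wfs1KO than in WT islets at an unadjusted p under 0.05, where 1.74% of all transcripts were lower and 3.91% higher. Grk5, a kinase that marks active receptors for arrestin, was 9.79 ± 1.64 RPKM in WT and 6.6 ± 0.906 in Wfs1KO islets (SD, n = 4), without overlap (-0.56, SE 0.2). Ramp2, a partner protein of receptors of this superfamily, was 3.77 ± 0.308 and 2.13 ± 0.53 RPKM, without overlap (-0.83, SE 0.27). Lower values without overlap, as for Grk5 and Ramp2, were found for 0.991% of all transcripts. The third lower gene was Rgs2 (-0.76) and the higher ones were Gng11 (1.35) and Gna14 (1.73), which the naming rule did not choose. Their lowest adjusted p in limma was 0.84. Gnas, which encodes the alpha subunit of Gs, was the most abundant at 307 RPKM and differed by -0.22 (SE 0.24). Gnai2 at 193 RPKM (-0.23, SE 0.31) and Rgs4 at 155 RPKM (-0.54, SE 0.3) came next. In Wfs1KO against Wfs1HZ islets Gng5 was the 1 gene at this p (0.69), where 1.7% of all transcripts were higher, and in Wfs1HZ against WT islets there was 0, with 2.35% of all transcripts.

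Of the 37 effectors of cyclic AMP and phospholipase C, 3 were lower and 1 higher in Wfs1KO than in WT islets at an unadjusted p under 0.05, where 1.74% of all transcripts were lower and 3.91% higher. Without overlap 2 of the 37 were lower, Prkcb and Prkar1a, and 2 were higher, among them Pde4a. Of all transcripts 0.991% were lower without overlap, and in both directions together 2.74% did not overlap. Prkcb, a protein kinase C that Gq-coupled receptors activate, was 18.3 ± 4.5 RPKM in WT and 10.1 ± 2.41 in Wfs1KO islets (SD, n = 4), without overlap (-0.85, SE 0.25). Prkar1a, the regulatory subunit of protein kinase A and the most abundant effector, was 166 ± 42 and 117 ± 10.7 RPKM, without overlap (-0.47, SE 0.21). Next in abundance were Prkacb at 103 RPKM (0.15, SE 0.2) and Prkaca at 30.3 RPKM (0.06, SE 0.23). Pde4a, a phosphodiesterase that degrades cyclic AMP, was higher, at 2.8 ± 0.665 RPKM against 1.53 ± 0.208 in WT islets (0.81, SE 0.29). The third lower gene was Pde10a (-0.58). In Wfs1HZ against WT islets Pde8a (-0.7) and Prkca (-0.62) were lower, where 1.27% of all transcripts were, and Prkcd (0.6) was higher, where 1.09% were. Pde8a and Prkcd did not overlap between these genotypes, like 1.66% of all transcripts in both directions. Against Wfs1HZ there was 0 in Wfs1KO islets, with 2.45% of all transcripts. The lowest adjusted p of the effectors was 0.84, so none passed. Rgs2, Gng11, Gna14, Gng5, Pde10a and Prkca were named after their values had been seen.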

How the data were processed

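Total RNA of islets of 4 WT, 4 Wfs1HZ and 4 Wfs1KO mice was sequenced per animal. From 10 ng of RNA the authors made cDNA with the Ovation RNA-Seq System V2, read 75 bp forward and 35 bp reverse on a SOLiD 5500xl, mapped to mm10 with LifeScope and tested counts with edgeR. The authors deposited RPKM, used here as log2(RPKM + 0.1); the annotation and the tool behind them are not given in the sources used here. A fold change on this scale understates that of low genes. Since RPKM are not counts, each pair of genotypes was fitted with limma (version 3.58.1, R 4.3.3) with a variance trend and Benjamini-Hochberg adjustment over 21701 transcripts whose mean reached 0.1 RPKM. Single genes were also compared by exact two-sided permutation. Reads per library were estimated from genes under 200 nt. The most common value after scaling by gene length, the median of the densest window of 2% width, was taken as 1 read. The transcript length of low receptors was sought between 500 and 7000 bases, as that which brought values of fewer than 30 reads within 0.05 read of whole reads on average. Analyses used Python 3.11.15, pandas 2.3.3, scipy 1.17.1 and matplotlib 3.10.9.

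The receptors and gene lists were chosen with earlier results of these data known. Named are all 10 receptors, Wfs1, of each list the 3 most abundant members and those with an unadjusted p under 0.05 and no overlap, and for each receptor of at least 1 RPKM the 2 nearest of 13355 transcripts by pattern. Of the other islet receptors, Ffar4 and Npy4r were not matched. Alternatives were pseudocounts of 1 and 0.01, other filters, scalings and variance models, sample weights, a replicate block, each animal left out, and 3 libraries left out. The result of 1 cell type marker is not reported here.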

Additional observations from a re-analysis of the deposited data

Results flagged for a closer look

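Among the 30 groups formed by the 10 receptor genes and 3 genotypes, 3 held a value that stood apart from the other 3 of its genotype, by more than Dixon's 95% limit for 4 values. For normally distributed values, chance alone gives such a value in about 1 of 20 groups. The limit was applied to RPKM without a log, and the 10 genes share the same libraries. The share of 1 in 20 is therefore only a rough guide here. Gpr119 was 6.17 RPKM in Wfs1HZ replicate 2, against 1.07 to 1.9 RPKM in the other Wfs1HZ libraries, and 6.5 RPKM in Wfs1KO replicate 4, against 0.43 to 1.28 RPKM in the other Wfs1KO libraries. Galr1 was 1.68 RPKM in Wfs1KO replicate 4, against 0.17 to 0.4 RPKM in the others. Both libraries are among the 3 with the highest Gcg, and the part of Gcg in these values was not tested.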

How the results depend on the processing

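Under the alternatives, 566 of 627 receptor differences kept their sign and 61 did not, and 13 of the 30 results never turned. The other filters, the variance models, the fit of all 12 samples and the replicate block leave a log2 difference unchanged. Their signs could not turn, yet they are counted among the 566, so this count overstates how stable the signs were. The lowest adjusted p of any receptor gene was 0.351, so none passed 0.05 in limma. Gipr stayed lower in Wfs1KO than in WT islets in every setting tried, with adjusted p-values of 0.449 to 1. Galr1 was not tested at a minimum of 1 RPKM. The reads, 2 to 16 per library for Ffar1 and 3.1 to 24.6 for Galr1, limit what can be seen of the low receptors. The setting without the 3 libraries was chosen after seeing the data. The cause of the changes below was not tested.

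For Wfs1KO and WT, 3 transcripts passed an adjusted p of 0.05. The number was 0 with a pseudocount of 1, 0 with the replicate block, 0 without the 3 libraries highest in Gcg, 1 with all 12 samples in one fit, and 0 to 1 with 1 animal left out. The receptor genes at an unadjusted p under 0.05 went from 1 to 2 with sample weights, to 4 without the 3 libraries, and to 0 to 3 with 1 animal left out. Among all 21701 transcripts the number went from 1225 to 2066, to 1672, and to 918 to 1870 in the same order. Turned values were Ffar1 0.0007 and Adra2a -0.28 without the 3 libraries, Adra2a -0.0013 with median-of-ratios scaling, Sstr3 0.12 with pan-endocrine scaling and Sstr3 0.0664 with sample weights. With 1 animal left out Gpr119 ranged from -1.19 to 0.0208, Adra2a from -0.19 to 0.26 and Sstr3 from -0.19 to 0.0727. Without a turn, Glp1r ranged from -0.90 to -0.42, Gipr from -1.55 to -1.01, Gcgr from -1.28 to -0.49, Ffar1 from -0.59 to -0.0712, Chrm3 from 0.21 to 0.69, Cckar from -1.05 to -0.30 and Galr1 from -1.17 to -0.27.

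For Wfs1HZ and WT, 1 transcript passed with no filter on low values and 2 with a variance without trend, against 0, and 1 receptor gene, Ffar1, had an unadjusted p under 0.05 with sample weights. At this p there were 1539 of the 21701 transcripts with weights, against 511 without. Weights turned Glp1r to 0.46, Gipr to 0.0317, Sstr3 to 0.32 and Galr1 to -0.32. Pan-endocrine scaling, which moved the median of all transcripts from 0.04 to 0.32, turned Gipr to 0.0547, Gpr119 to 0.25 and Sstr3 to 0.19. Quantile normalization turned Adra2a to -0.15 and Galr1 to -0.0053, and omission of the 3 libraries turned Sstr3 to 0.11 and Galr1 to -0.75. With 1 animal left out the ranges were -0.70 to 0.25 for Glp1r, -0.46 to 0.0837 for Gipr, -0.57 to 0.27 for Gpr119, -0.20 to 0.23 for Adra2a, -0.31 to 0.0663 for Sstr3 and -0.59 to 0.59 for Galr1, and without a turn 0.22 to 0.57 for Gcgr, -1.10 to -0.61 for Ffar1, 0.15 to 0.62 for Chrm3 and -0.61 to -0.07 for Cckar.

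For Wfs1KO and Wfs1HZ, 1 transcript passed with a robust variance and 5 with sample weights, against 0. The receptor genes at an unadjusted p under 0.05 went from 0 to 2 with median-of-ratios scaling, sample weights or without the 3 libraries, to 1 with pan-endocrine scaling, a variance without trend or all 12 samples in one fit, and to 0 to 2 with 1 animal left out. Among all 21701 transcripts the number went in the same order from 532 to 795, 2243 and 1280, to 498, 537 and 698, and to 340 to 1308. Adra2a turned to -0.0628, -0.12, -0.0497 and -0.29 with median-of-ratios scaling, pan-endocrine scaling, weights and without the 3 libraries, and Sstr3 to -0.0159, -0.0747, -0.26 and -0.13 in the same order and to -0.0246 with quantile normalization. Chrm3 turned to -0.0108 with median-of-ratios and -0.0693 with pan-endocrine scaling. With 1 animal left out the ranges were -0.84 to 0.11 for Glp1r, -1.14 to 0.0732 for Gpr119, -0.20 to 0.25 for Adra2a, -0.0763 to 0.20 for Chrm3, -0.70 to 0.0469 for Cckar, -0.12 to 0.26 for Sstr3 and -1.28 to 0.0025 for Galr1, and without a turn -1.29 to -0.82 for Gipr, -1.62 to -0.84 for Gcgr and 0.27 to 0.79 for Ffar1.

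The sample names do not say whether the replicate numbers pair the animals. The deviations of same-numbered samples correlated at -0.28 to 0.34, which cannot decide the question with so few animals. In 12 pairings over the 3 comparisons, 2 correlated best at their own number, both in Wfs1HZ against WT islets. A replicate block gave 1091 transcripts below the unadjusted threshold of 0.05 in Wfs1KO against WT islets instead of 1225, 854 in Wfs1HZ against WT islets instead of 511 and 395 in Wfs1KO against Wfs1HZ islets instead of 532, and in the first comparison among the receptors again Gipr (limma adjusted p = 0.93).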
